A study of Mus musculus with 16 samples.

Results

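The genes described here are 10 genes that mark cortical interneurons or encode neuropeptides: Gad1, Gad2, Pvalb, Sst, Vip, Npy, Cck, Reln, Tac1 and Cort. They were taken by symbol from the 20436 genes listed in every library, and all 10 were found and passed the filter on low counts in both assays. The study measured cytoplasmic RNA (RNA-seq) and ribosome footprints (ribosome profiling, which sequences the mRNA fragments that ribosomes protect from nuclease) in mouse cerebral cortex. The 4 genotypes were wild type (WT), Fmr1 single knockout (Fmr1 KO), Cpeb1 single knockout (Cpeb1 KO) and the knockout of both genes (double KO). Fmr1 encodes FMRP, the RNA-binding protein missing in fragile X syndrome, and Cpeb1 encodes an RNA-binding protein that acts on polyadenylation and translation. All mice, controls included, were 28 to 35 days old and shared 1 congenic background derived from FVB mice, FVB.129P2-/Pde6b+ Tyr c-ch //AntJ. Alleles and sex are not given in the sources used here. Each genotype had 2 libraries of each assay, numbered 1 and 2, which makes 16. Nothing in the labels says that the libraries of a group came from separate animals, so p-values measure only the spread between these samples.

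Cortical interneurons are the local neurons that release GABA, which 2 glutamate decarboxylases, GAD67 (Gad1) and GAD65 (Gad2), make from glutamate. Most fall into classes told apart by parvalbumin, somatostatin or vasoactive intestinal peptide. Neuropeptides are made as precursor proteins, cut and modified by convertases and stored in dense-core granules, from which they act on G protein-coupled receptors. In cortex Npy and Cort are made mostly by interneurons, Cck and Tac1 also by other neurons, and reelin is a large secreted glycoprotein. In bulk cortex, fewer cells of a type and less RNA per cell cannot be told apart.

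Library totals ran from 5423925 to 10246482 estimated counts in the 8 RNA-seq libraries and from 16239703 to 24973757 in the 8 footprint libraries. The targeted genes followed the labels: Fmr1 footprints were 5.31 to 8.64 CPM of the library total in the 4 libraries labelled as lacking it and 95.6 to 107 in the other 4, and Cpeb1 had 7.22 to 7.71 against 33.7 to 36.8. Markers of cortical excitatory neurons were present in every library, with all 10 of 10 detected, and so were 7 of 7 striatal neuron markers. The striatal markers summed to 407 to 552 CPM in Cpeb1 KO RNA and to 706 to 911 in WT RNA. In footprints their sums overlapped, at 842 to 881 CPM in the Cpeb1 KO and 793 to 905 in WT. CPM are counts scaled to library size with edgeR's TMM factors. A gene is called changed where its p-value from edgeR's quasi-likelihood test, adjusted over all genes tested by Benjamini-Hochberg, is under 0.05.

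All 10 genes are protein coding, and each appears to be counted over its coding sequence. Positions are of GRCm38.p6. Gad1 (NCBI gene 14415) lies at chr2:70561303-70602014 and Gad2 (14417) at chr2:22621015-22693877. Pvalb (19293) lies at chr15:78191112-78206400, Sst (20604) at chr16:23889573-23891342 and Vip (22353) at chr10:5639193-5647617. Npy (109648) lies at chr6:49822710-49829507, Cck (12424) at chr9:121489824-121495694 and Tac1 (21333) at chr6:7555061-7562978. Cort (12854) lies at chr4:149125034-149126763 and Reln (19699) at chr5:21884454-22344705. Counted lengths in the RNA-seq tables were 291 nt for Npy, 327 for Cort, 330 for Pvalb, 345 for Cck, 348 for Sst, 390 for Tac1 and 513 for Vip, against 1755 for Gad2, 1779 for Gad1 and 10382 for Reln. Gad1 overlaps the long noncoding RNA Gad1os, Cck overlaps Gm38661 and Reln overlaps 2 pseudogenes, Gm16111 and Dnaja1-ps, so reads of those pairs may not be fully separated.

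Several neuropeptide genes are textbook targets of cAMP signalling through the cAMP response element, whose core is TGACG, or CGTCA on the other strand. The 100 bases before the RefSeq transcription start were searched for it on both strands in the sequence of GRCm38.p6, and 6 of the 10 genes held it (Gad2, Sst, Vip, Cck, Tac1 and Cort), against 10.5% of 32851 promoters. The full palindrome TGACGTCA, which contains the core on each strand, was found in 1.15% of promoters and, among the 10 genes, in Sst alone, at position -48. Shown are the 3 genes that pass a test further on and Sst, with cores in capitals. The windows are chr6:49822610-49822709 (plus strand) for Npy, chr4:149126764-149126863 (minus strand) for Cort, chr10:5639118-5639217 (plus strand) for Vip and chr16:23890845-23890944 (minus strand) for Sst. Each reads 5′ to 3′ toward the gene, and the starts used for Vip and Sst lie inside the annotated spans of these genes.
Npy: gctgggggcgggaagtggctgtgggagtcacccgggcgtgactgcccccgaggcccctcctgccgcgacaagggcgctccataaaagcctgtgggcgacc
Cort: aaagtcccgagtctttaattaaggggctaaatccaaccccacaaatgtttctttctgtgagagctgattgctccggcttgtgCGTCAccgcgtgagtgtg
Vip: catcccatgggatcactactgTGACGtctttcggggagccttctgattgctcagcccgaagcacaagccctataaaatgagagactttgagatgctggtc
Sst: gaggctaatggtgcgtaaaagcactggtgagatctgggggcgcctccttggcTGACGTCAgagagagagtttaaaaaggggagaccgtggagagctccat
Npy held no core in this window, and the match in Cort lay at position -18 and that in Vip at -79. A match is a description of the letters, and no factor's binding was measured here.

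Per unit length (the TPM values the authors deposited), Cck was the most abundant of the 10 in both assays and Cort the least. The median RNA level over 8 libraries was 921 TPM for Cck, the precursor of cholecystokinin (range 798 to 1170). Gad1 had 436 TPM (399 to 455) and Sst, the precursor of somatostatin, 374 TPM (305 to 505), and these ranges overlapped. A middle group followed at 214 TPM for Pvalb, a calcium-buffering protein, 204 TPM for Gad2 and 172 TPM for Npy, the precursor of neuropeptide Y, with overlapping ranges between neighbours. Tac1, the precursor of substance P, had 93.9 TPM, Vip 62.0 TPM and Reln 55.8 TPM, again overlapping from each to the next. Cort, the precursor of the somatostatin-like peptide cortistatin, had 13.8 TPM (11.3 to 17.9), below every library of Reln. Counts behind Cort were low, at 13 to 32 in RNA-seq and 78 to 169 in footprints, so its values carry the most counting error.

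In footprints the order changed in the middle. Cck led at a median of 1140 TPM, Sst followed at 800 TPM and Gad1 at 755 TPM with overlapping ranges. Npy, the sixth in RNA, came above Gad2 at 434 TPM (353 to 519), every library exceeding those of Gad2, which had 316 TPM. Pvalb had 301 TPM, Tac1 205 TPM and Vip 84.5 TPM. Reln (25.4 TPM) and Cort (22.0 TPM) overlapped at the low end.

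The libraries of one genotype and number come from one split lysate as far as the protocol describes it, so footprint TPM can be set over RNA TPM. As a log2 ratio, after subtracting the median over the 13027 genes tested in both assays, 9 of the 10 genes lay above the median gene and Reln below it. Npy had a mean of 1.97 ± 0.242 (SD, n = 8), which is 3.93-fold above the median gene and in percentile 99.0. Sst followed at 1.81 ± 0.242 (percentile 98.4) and Tac1 at 1.73 ± 0.365 (percentile 98.0). Gad1 had the tightest ratio, 1.42 ± 0.0577, while Cort had the widest, 1.36 ± 0.55. Gad2 was at 1.18 ± 0.134, Pvalb at 1.09 ± 0.282, Vip at 1.02 ± 0.268 and Cck at 0.915 ± 0.139. The ratio of Reln was -0.496 ± 0.175, in percentile 30.8, and all 8 lysates lay below 0. Short coding sequences had high ratios in general: the median was 0.786 for the 1544 tested genes counted over less than 600 nt and -0.0941 for the others. Among those short genes Npy stood in percentile 95.0, Sst in 92.9 and Tac1 in 91.0, and Cck in 57.4, near the middle.

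**Figure D1:**
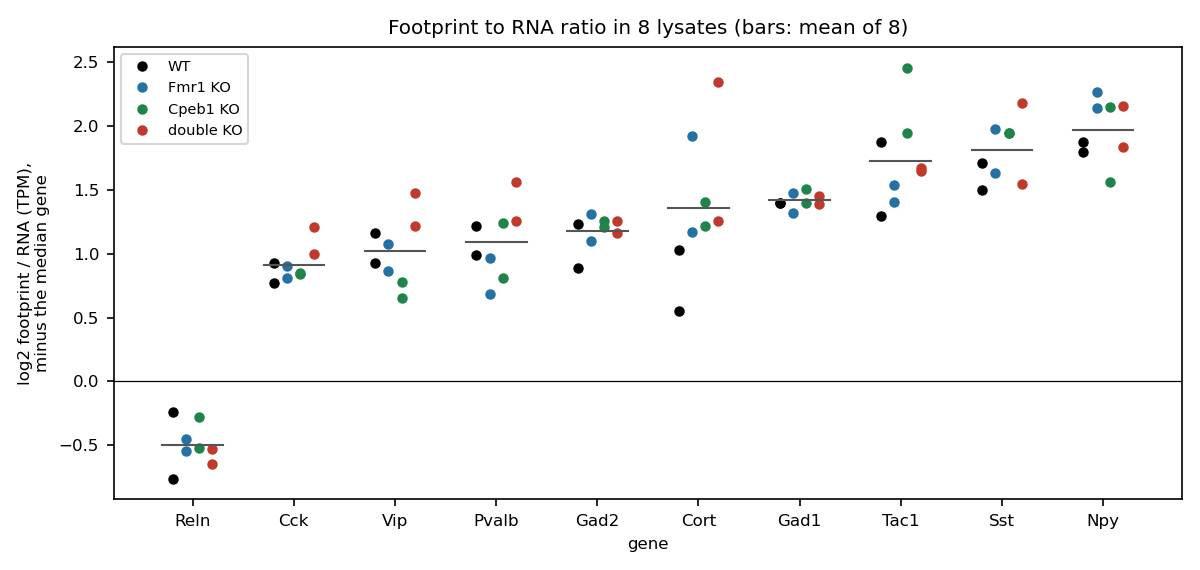
Log2 footprint to RNA ratio (TPM over TPM, minus the median gene of the same lysate) of the 10 genes, ordered by mean; each point is 1 of 8 lysates coloured by genotype and the bar is the mean. All 8 lysates of Reln lie below 0, and those of Npy lie between 1.56 and 2.27.

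Differences between genotypes were few against the spread of the libraries. Over 22 comparisons of the 10 genes (9 in RNA, 9 in footprints and 4 of translational efficiency, meaning the change in footprints set against that in RNA), 3 calls were made: Npy and Cort in footprints and Vip in RNA. The plot of levels by genotype shows all values.

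**Figure D2:**
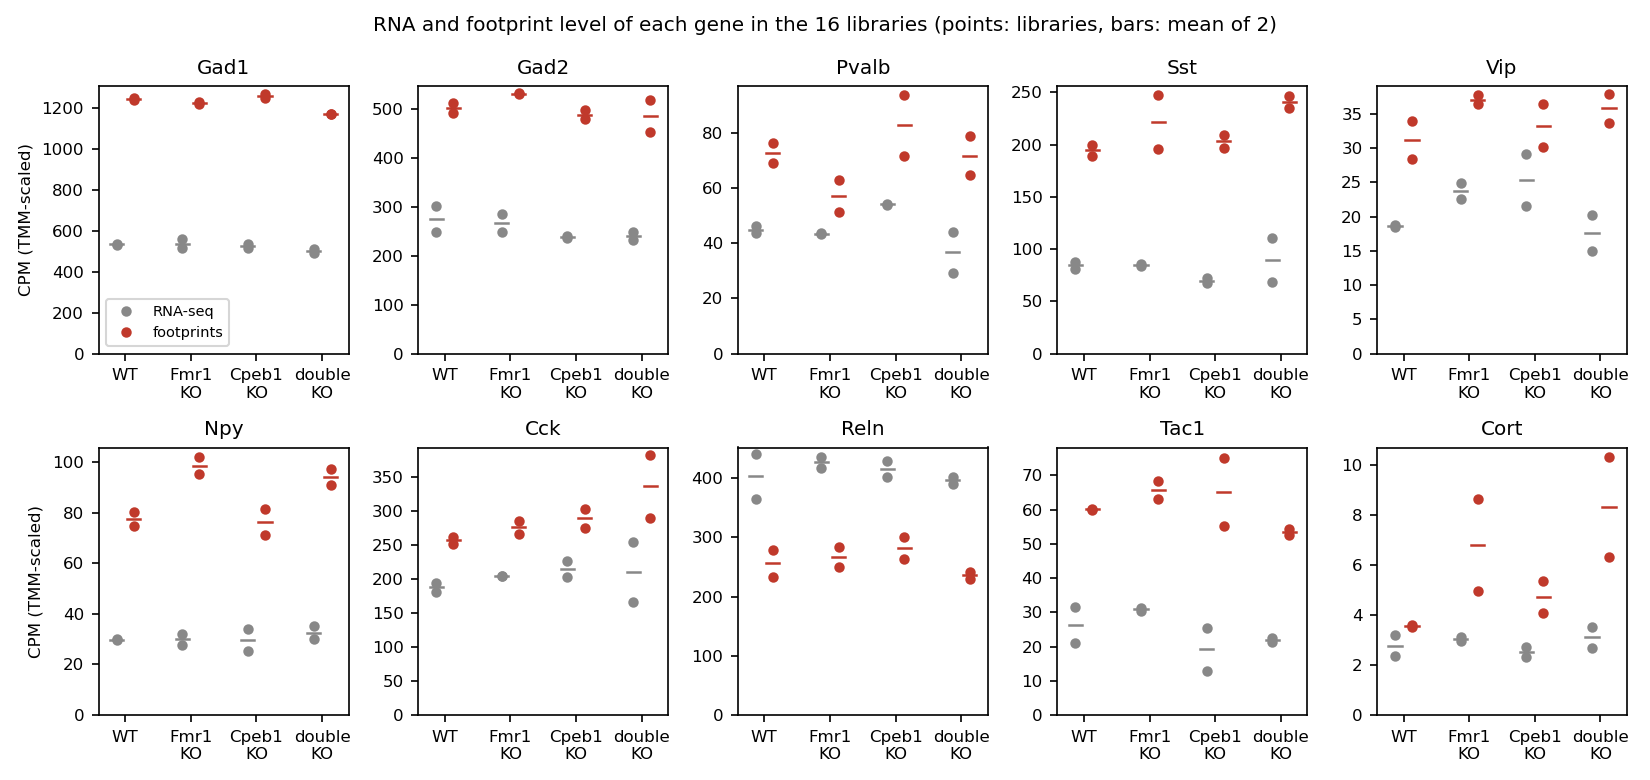
TMM-scaled CPM (y axis, from 0) of each gene by genotype, RNA-seq in grey and footprints in red; points are single libraries and bars the mean of 2. Npy footprints in both Fmr1 KO and both double KO libraries (90.9 to 102 CPM) lie above those of the other 4 (71.4 to 81.7 CPM).

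Npy footprints were higher where Fmr1 was lost. They measured 74.7 and 80.3 CPM in the WT libraries, 71.4 and 81.7 in the Cpeb1 KO, 95.2 and 102 in the Fmr1 KO, and 97.4 and 90.9 in the double KO. The 4 libraries without Fmr1 lay above the 4 with it, with no overlap and in both replicate numbers. The mean was 96.4 ± 4.71 CPM without Fmr1 and 77 ± 4.83 with it (SD, n = 4), a log2 change of 0.33 ± 0.063 (SE) or 1.25-fold (edgeR adjusted p = 0.0412). It was the only one of the 10 called in that comparison, in which 0.922% of the 13774 genes tested were called. Npy RNA measured 29.6 and 29.9 CPM in WT, 33.9 and 25.3 in the Cpeb1 KO, 27.8 and 32.2 in the Fmr1 KO, and 30.0 and 35.2 in the double KO. Those groups overlapped, and the RNA change was 0.06 ± 0.122 (edgeR adjusted p = 1). The difference between the footprint and RNA changes of Npy, tested as translational efficiency, was 0.26 ± 0.137 and was not called (edgeR adjusted p = 1, unadjusted p = 0.0802). None of the 10 was called for that measure (0.00768% of 13027 genes were), none had an unadjusted p under 0.05, and DESeq2 called none.

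The Npy call did not hold in all fits. Without the replicate block its edgeR adjusted p was 0.0907, and over all alternatives it ran from 0.0015 (DESeq2) to 0.274. It passed without either WT library (edgeR adjusted p = 0.0147 and 0.0274). It did not pass without Fmr1 KO library 1 or 2 (edgeR adjusted p = 0.105 and 0.157), Cpeb1 KO library 1 or 2 (0.274 and 0.117) or double KO library 1 or 2 (0.101 and 0.0665), while the log2 change of Npy stayed between 0.27 and 0.38 throughout. Footprints of oligodendrocyte markers moved with the same split: the 6 of 6 detected summed to 2890 to 2910 CPM in the Fmr1 KO and 2800 to 3150 in the double KO, against 3380 to 3550 in WT and 3250 to 3830 in the Cpeb1 KO, and 2 of the 6 were called lower. In RNA the oligodendrocyte sums overlapped, at 1350 to 1410 CPM in the Fmr1 KO and 1400 to 1540 in the double KO. Those of WT were 1400 to 1740 CPM and those of the Cpeb1 KO 1480 to 1700. The part of these levels in the Npy result was not tested.

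Cort, Sst and Pvalb came nearest to Npy in the same footprint comparison, and none of them was called. Cort footprints measured 3.51 and 3.60 CPM in WT, 5.36 and 4.08 in the Cpeb1 KO, 8.64 and 4.95 in the Fmr1 KO, and 6.30 and 10.3 in the double KO. The lowest library without Fmr1 (4.95 CPM) lay below the highest with it (5.36 CPM), and the log2 change was 0.86 ± 0.200 (edgeR adjusted p = 0.0619). Sst had a log2 change of 0.21 ± 0.0675 (edgeR adjusted p = 0.128) and Pvalb one of -0.27 ± 0.0921 (edgeR adjusted p = 0.146). Gad1 footprints were between 1170 and 1230 CPM in the 4 libraries without Fmr1 and between 1240 and 1270 in the 4 with it, so they did not overlap, but the log2 change was only -0.07 ± 0.0421 (edgeR adjusted p = 0.42). Cort was called without WT library 1, Fmr1 KO library 2 or double KO library 1 (edgeR adjusted p = 0.0421, 0.0414 and 0.0366), and Sst without WT library 1 (0.0365). Npy and Gad1 were the 2 of 10 genes without overlap, where 6.74% of all genes had none.

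Cort footprints were higher in the double KO than in WT. With the values given above, the means were 8.30 ± 2.83 CPM and 3.55 ± 0.0574 CPM (SD, n = 2), and both double KO libraries lay above both WT libraries. For 2 libraries against 2, here and below, the share of all genes without overlap was not computed. The log2 change was 1.21 ± 0.287, or 2.32-fold (edgeR adjusted p = 0.0459), and Cort was the only one of the 10 called among the 2.65% of genes called. Its RNA measured 3.20 and 2.35 CPM in WT and 3.51 and 2.70 in the double KO, which overlap. The footprint change relative to RNA was 1.05 ± 0.504 for Cort (edgeR adjusted p = 1, unadjusted p = 0.0552), and no gene of the 10 was called for translational efficiency (0.00768% of all genes were), none at an unadjusted p under 0.05 and none by DESeq2. The Cort footprint change rested on 1 library: without double KO library 2 it was 0.62 (edgeR adjusted p = 0.37), and without double KO library 1 it was 1.76 (edgeR adjusted p = 0.0236). The Cort call was also lost without the replicate block (edgeR adjusted p = 0.0785), without WT library 1 or 2 (0.0658 and 0.0898) and without Cpeb1 KO library 1 or 2 (0.0747 and 0.0739), and DESeq2 gave Cort no adjusted p. Over the alternatives that gave one, its adjusted p ran from 0.014 to 0.37.

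In the same comparison Cck, Npy and Sst footprints had higher means in the double KO without passing the test. Cck measured 252 and 262 CPM in WT and 290 and 383 in the double KO (log2 change 0.38 ± 0.1004, edgeR adjusted p = 0.0633). Sst measured 200 and 189 CPM in WT and 235 and 246 in the double KO (0.30 ± 0.0955, edgeR adjusted p = 0.105), and Npy had a change of 0.28 ± 0.0891 (edgeR adjusted p = 0.101). Both double KO libraries exceeded both WT libraries for each of these 3 genes, and the share of all genes that did so was not computed. Without WT library 1 Sst (0.40, edgeR adjusted p = 0.0401) and Cck (0.41, edgeR adjusted p = 0.0484) were called, and without double KO library 1 Cck was (0.58, edgeR adjusted p = 0.0382). DESeq2 called Cck as well (adjusted p = 0.0167). Footprint sums of markers of other cells differed between the same libraries. Those of 5 astrocyte markers were 486 to 502 CPM in the double KO and 530 to 616 in WT, those of 5 microglial markers 17.6 to 24.8 against 26.2 to 36.6, and those of 7 striatal neuron markers 951 to 1050 against 793 to 905, with none of these markers at 0, and oligodendrocyte sums were lower as given above. In RNA the astrocyte sums differed the other way, at 468 to 471 CPM in the double KO and 371 to 433 in WT. The microglial sums (30.7 to 40.7 against 23.5 to 31.2 CPM) and striatal sums (773 to 820 against 706 to 911) overlapped in RNA. The part of these markers in the results for Cort, Cck, Npy and Sst was not tested.

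Vip RNA was higher in the single KOs than in WT and the double KO. It measured 22.5 and 24.9 CPM in the Fmr1 KO and 29.1 and 21.6 in the Cpeb1 KO, against 18.4 and 18.8 in WT and 14.9 and 20.2 in the double KO. The 4 single KO libraries lay above the other 4 with no overlap, at means of 24.5 ± 3.37 and 18.1 ± 2.26 CPM (SD, n = 4). With the libraries pooled into these 2 groups, as the authors did for RNA, the log2 change was 0.45 ± 0.130, or 1.37-fold (edgeR adjusted p = 0.0477). One call among 10 genes is near the background, since 7.31% of the 13287 genes tested were called, and 12.2% of them had groups without overlap, where Vip was the 1 gene of the 10. Vip footprints measured 37.7 and 36.4 CPM in the Fmr1 KO, 36.4 and 30.1 in the Cpeb1 KO, 28.4 and 34.0 in WT, and 33.7 and 37.9 in the double KO. The footprint groups overlapped, with a change of 0.07 ± 0.1002 (edgeR adjusted p = 0.863). No gene of the 10 was called in footprints of the pooled comparison (0% of all genes were called), and DESeq2 called none. An unadjusted p under 0.05 was found for 1 of the 10 and for 957 of all 13774 genes. There 0 of the 10 had groups without overlap, against 3.06% of genes.

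The Vip call was close to the threshold. It was lost with DESeq2's size factors in edgeR (adjusted p = 0.0522), with at least 10 counts required in every library (edgeR adjusted p = 0.0547), without the replicate block (0.0691) and as a contrast of the 4 genotype means (0.098). It was lost without WT library 1 or 2 (edgeR adjusted p = 0.106 and 0.0589), Fmr1 KO library 1 or 2 (0.0898 and 0.0963), Cpeb1 KO library 1 (0.202) or double KO library 1 (0.196). The adjusted p of Vip ran from 0.0216 to 0.202 over all alternatives, and its log2 change stayed between 0.33 and 0.52. RNA of the 10 excitatory neuron markers summed to 1840 to 1860 CPM in the Fmr1 KO and 1700 to 2000 in the Cpeb1 KO, against 2110 to 2160 in WT and 2140 to 2270 in the double KO. RNA of the 5 astrocyte markers summed to 487 to 513 and 474 to 533 CPM in the single KOs and to 371 to 433 and 468 to 471 in WT and the double KO. In footprints the excitatory sums were 1280 to 1330 CPM in the Fmr1 KO and 1230 to 1280 in the Cpeb1 KO. Those of WT were 1260 to 1270 CPM and those of the double KO 1320 to 1390. Astrocyte footprint sums were 521 to 525 and 545 to 592 CPM in the single KOs. They were 530 to 616 CPM in WT and 486 to 502 in the double KO. None of these markers was at 0, and their part in the Vip result was not tested.

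**Figure D3:**
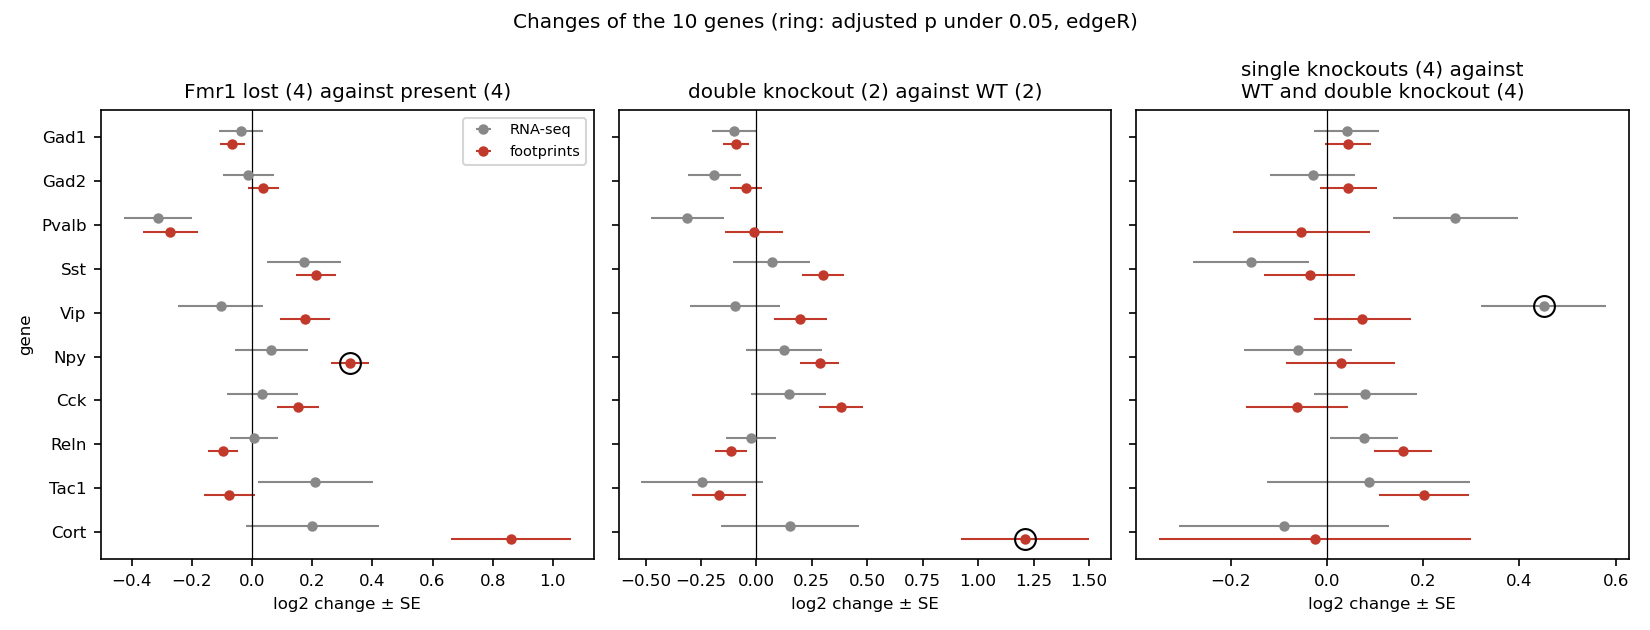
Log2 change ± SE (x axis) of each of the 10 genes in 3 comparisons, RNA-seq in grey and footprints in red; rings mark edgeR adjusted p under 0.05. The ringed points are Npy footprints (0.33), Cort footprints (1.21) and Vip RNA (0.45).

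Gad1, an enzyme of GABA synthesis, was the steadiest of the 10 in both assays, and Gad2, the other such enzyme, came next in footprints. Gad1 RNA stayed between 490 and 562 CPM in all 8 libraries, with a coefficient of variation of 4.2%, below that of all but 0.707% of the genes tested, whose median was 13.7%. In footprints Gad1 varied by 3.13% and Gad2 by 5.37%, where the median gene varied by 10.4%. Gad2 RNA measured 249 and 302 CPM in WT, 249 and 286 in the Fmr1 KO, 240 and 236 in the Cpeb1 KO, and 248 and 233 in the double KO. The 4 libraries without Cpeb1 were just below the 4 with it, which 1.29% of all genes also showed in one direction or the other, and the log2 change of -0.18 ± 0.085 was not called (edgeR adjusted p = 1). No gene of the 10 was called for Cpeb1 loss in RNA (0% of all genes were) and none in footprints (0.167%). The tests of the 10 gave 1 unadjusted p under 0.05 in RNA, where 311 of all 13287 genes had one. They gave 2 in footprints, where 1047 of 13774 genes had one, and DESeq2 called none. In footprints 0 of the 10 had groups without overlap for Cpeb1 loss, against 1.79% of all genes.

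Pvalb, Sst and Tac1 RNA varied more, with coefficients of variation of 17.3%, 17.3% and 26.3%, and so did Vip RNA, with 20.5%. Pvalb RNA measured 43.7 and 46.2 CPM in WT, 43.7 and 43.2 in the Fmr1 KO, 54.0 and 54.3 in the Cpeb1 KO, and 29.3 and 44.2 in the double KO. The Cpeb1 KO was highest, and the double KO lowest through its library 1. Pvalb RNA in the double KO was not called against the Cpeb1 KO (log2 change -0.58 ± 0.162, edgeR adjusted p = 0.119), with 0 of the 10 called, 0 by DESeq2 and 0.00753% of all genes called. There 2 of the 10 had an unadjusted p under 0.05, as did 2550 of all 13287 genes tested. Without double KO library 2 it was called (-0.85, edgeR adjusted p = 0.0185), and without Cpeb1 KO library 2 Vip was (-0.85, edgeR adjusted p = 0.0465). Pvalb footprints measured 76.2 and 69.0 CPM in WT, 62.9 and 51.3 in the Fmr1 KO, 93.8 and 71.7 in the Cpeb1 KO, and 64.8 and 78.8 in the double KO. Both Fmr1 KO libraries lay below both Cpeb1 KO libraries, with a log2 change of -0.53 ± 0.130 that was not called (edgeR adjusted p = 0.562). Npy, in that same comparison, differed by 0.37 ± 0.0888 (edgeR adjusted p = 0.562). In a fit of only the 2 genotypes, edgeR called both Pvalb (adjusted p = 9.01e-05) and Npy (adjusted p = 0.00292). Over all genes that fit called 141, against 8 in the fit of all 4 genotypes. In the fit of all 4 genotypes 0 of the 10 were called, and 0 by DESeq2, with 0.0581% of all genes called. There 2 of the 10 had an unadjusted p under 0.05, as did 673 of all 13774 genes tested.

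Sst RNA was 111 CPM in double KO library 2 and between 67.2 and 87.9 CPM in the other 7 libraries. Sst footprints ran from 189 to 247 CPM, the highest being Fmr1 KO library 2. Tac1 RNA had the largest spread of the 10 in that assay, a coefficient of variation of 26.3%, from 12.9 CPM in Cpeb1 KO library 2 to 31.4 CPM in WT library 2. The 2 WT libraries, at 21.1 and 31.4 CPM, lay far apart. Tac1 RNA with Cpeb1 lost had a log2 change of -0.46 ± 0.1921 (edgeR adjusted p = 1).

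Reln, the largest of the 10, varied little in RNA (365 to 441 CPM, 6.24%). Reln footprints measured 233 and 279 CPM in WT, 250 and 284 in the Fmr1 KO, 264 and 300 in the Cpeb1 KO, and 230 and 241 in the double KO. The double KO was below the Cpeb1 KO in both libraries, with a log2 change of -0.26 ± 0.0709 that just missed the threshold (edgeR adjusted p = 0.0532). Npy in the same comparison had a change of 0.30 ± 0.0891 (edgeR adjusted p = 0.0629). Of the 10 genes 0 were called by edgeR in double KO footprints against the Cpeb1 KO, where 5.6% of all genes were. There 5 of the 10 had an unadjusted p under 0.05, as did 3385 of all 13774 genes tested. DESeq2 called 2, Npy and Reln. Without WT library 1 edgeR also called those 2 (Reln adjusted p = 0.0191, Npy 0.0269), and so it did without WT library 2 (0.0197 and 0.0269). Without double KO library 1 it called Cort (1.36, adjusted p = 0.0456). In a fit of only the 2 genotypes it called 4: Sst, Npy, Reln and Cort. Over all genes that fit called 1701, against 772 in the fit of all 4 genotypes.

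The remaining comparisons had no call among the 10 by edgeR in the main fits or by DESeq2. For double KO footprints against the Fmr1 KO, edgeR called 2 in a fit of only the 2 genotypes. These were Pvalb (0.329, edgeR adjusted p = 0.0377) and Cck (0.273, edgeR adjusted p = 0.0278). Over all genes that fit called 762, against 46 in the main fit. In RNA, the share of all genes called was 0.00753% for the Fmr1 KO against WT, 0% for the Cpeb1 KO against WT, 0.00753% for the double KO against WT and 0% against the Fmr1 KO. At an unadjusted p under 0.05 were 0, 1, 0 and 1 of the 10, and 1075, 1455, 562 and 2087 of all 13287 genes. For Fmr1 loss in RNA the share called was 0.00753%, and 1 of the 10 (Pvalb, log2 change -0.31 ± 0.1138) and 446 of all genes had an unadjusted p under 0.05. There 0 of the 10 had groups without overlap, against 1.59% of genes. For the Fmr1 against the Cpeb1 KO the share was 0.00753%, with 1 of the 10 (Tac1, 0.67 ± 0.2693) and 247 of all genes at such a p. In footprints the share called was 0.0581% for the Fmr1 KO against WT, 0.0799% for the Cpeb1 KO against WT and 0.334% for the double KO against the Fmr1 KO. At an unadjusted p under 0.05 were 3, 0 and 4 of the 10, and 701, 534 and 2184 of all 13774 genes. The 3 genes of the Fmr1 KO against WT were Npy (0.35 ± 0.0888, edgeR adjusted p = 0.503), Cort (0.92 ± 0.2884, edgeR adjusted p = 0.799) and Pvalb (-0.35 ± 0.1305, edgeR adjusted p = 0.888). For translational efficiency the shares were 0.0154% and 0% for the Fmr1 and the Cpeb1 KO against WT, with 0 of the 10 in each. These comparisons share WT or knockout libraries, so their values are not independent.

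The authors' deposited table of the pooled RNA comparison, in which WT and the double KO stand over the single KOs, gave Vip a log2 change of -0.31 (adjusted p = 0.0235) as the 1 member called, with 9.09% of listed genes called. For footprints of the double KO over WT, the authors' deposited table called Sst (0.27, adjusted p = 0.0233), Npy (0.25, adjusted p = 0.0393) and Cck (0.33, adjusted p = 0.00378), with 4.9% of genes called, and gave Cort no adjusted p. For footprints of the double KO over the Cpeb1 KO, the authors' deposited table called Npy (0.27, adjusted p = 0.0164) and Reln (-0.21, adjusted p = 0.0269), with 7.73% of genes called. In the authors' deposited table of Fmr1 over Cpeb1 KO footprints, Pvalb (-0.47, adjusted p = 0.033) and Npy (0.33, adjusted p = 0.0477) were called, with 0.125% of genes called. For RNA of the double KO over the Cpeb1 KO, the authors' deposited table called Pvalb (-0.35, adjusted p = 0.045), with 3.04% of genes called. In their other 14 tables no gene of the 10 was called, the 6 tables of translational efficiency included. Some members had no adjusted p there, so they could not be called. In RNA these were Vip, Npy, Tac1 and Cort for WT over the Fmr1 KO, and Vip, Tac1 and Cort for the double KO over it. Across the authors' comparisons Vip was the 1 gene of the 10 called both by the authors and by edgeR here.

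The genes closest in pattern were found by the root mean square difference of log2 CPM, centred within assay, over the 16 libraries. For Pvalb they were Ephx4 (0.147) and Syt16 (0.153), where the median tested gene lay at 0.295. Those of Sst were Arhgef4 (0.0959) and Mzt2 (0.0971), against a median of 0.253. For Vip they were Smim7 (0.104) and Lsm3 (0.11), against 0.268.

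Of 15 transcription factors of the interneuron lineage, 4 had lower RNA in the single KOs, in the comparison in which Vip was higher and in which 5.09% of all genes were called lower. All 15 had a log2 change below 0 against WT and the double KO, with a median of -0.42 where the median of all genes was 0.03. The 4 called lower were Maf (-0.735 ± 0.1621, edgeR adjusted p = 0.0182), Dlx6 (-0.61 ± 0.1536, edgeR adjusted p = 0.0281), Npas1 (-0.57 ± 0.1522, edgeR adjusted p = 0.0371) and Sp9 (-0.55 ± 0.1436, edgeR adjusted p = 0.0337), all DNA-binding proteins of developing or mature interneurons. Maf RNA measured 11.3 and 16.5 CPM in the Fmr1 KO and 9.59 and 17.5 in the Cpeb1 KO, against 22.3 and 20.9 in WT and 25.2 and 19.9 in the double KO. These calls depended on single libraries: without Cpeb1 KO library 1 none of the 4 passed (edgeR adjusted p = 0.0832 for Maf, 0.122 for Dlx6, 0.139 for Npas1 and 0.148 for Sp9), and none passed without WT library 1, Fmr1 KO library 1 or double KO library 1. Without Cpeb1 KO library 2, Maf was the only one that passed. Npas1 was also lost without WT library 2 (edgeR adjusted p = 0.0609) and Sp9 without Fmr1 KO library 2 (0.0576), and without the replicate block Dlx6, Npas1 and Sp9 did not (edgeR adjusted p = 0.0534, 0.0561 and 0.0541). As a contrast of the 4 genotype means none of the 4 passed (edgeR adjusted p from 0.0562 to 0.0781). In footprints of that comparison 3 of the 15 were above 0, the median was -0.07 (all genes 0.00) and none was called by edgeR, where 0% of all genes were. There 1 of the 15 had an unadjusted p under 0.05, as did 957 of all 13774 genes. Of 19 tested other genes of interneuron classes 1 was called lower in RNA, near that background of 5.09%: the potassium channel gene Kcnc1 (-0.48 ± 0.0975, edgeR adjusted p = 0.0127), and 10 were above 0. Of 10 excitatory neuron markers 2 were called lower there, Cux2 (-0.66 ± 0.1321, edgeR adjusted p = 0.0117) and Tbr1 (-0.46 ± 0.1123, edgeR adjusted p = 0.0266), and 1 was above 0. Of 7 striatal neuron markers 1 was above 0 in the same comparison, with a median of -0.41, close to that of the transcription factors, and Ppp1r1b, which encodes DARPP-32, was called lower (-0.60 ± 0.1603, edgeR adjusted p = 0.0371). All 5 astrocyte markers were above 0, with a median of 0.19, and the connexin gene Gja1 was called higher (0.38 ± 0.0931, edgeR adjusted p = 0.0264). In footprints 6 of the 10 excitatory, 5 of the 7 striatal and 3 of the 5 astrocyte markers were above 0, and none was called. The part of these markers in the results for the transcription factors was not tested. Neither Ppp1r1b nor Gja1 was called without WT library 1 (edgeR adjusted p = 0.0745 and 0.0621), Cpeb1 KO library 1 (0.117 and 0.115), double KO library 1 (0.0847 and 0.108) or the replicate block (0.0524 and 0.148). Ppp1r1b was also lost without WT library 2 (0.0814) and with DESeq2 (0.0918), and Gja1 without Fmr1 KO library 1 or 2 (0.0577 and 0.0768) and as a contrast of the 4 genotype means (0.0682). Without Cpeb1 KO library 1 or Fmr1 KO library 1, Kcnc1 (edgeR adjusted p = 0.0649 and 0.0578), Cux2 (0.0544 and 0.0617) and Tbr1 (0.107 and 0.082) did not pass either. Kcnc1 and Tbr1 were also lost without WT library 1 (edgeR adjusted p = 0.0538 and 0.0828), and Tbr1 without Fmr1 KO library 2 (0.0662), double KO library 1 (0.0902) or the replicate block (0.0504), and as a contrast of the 4 genotype means (0.0772).

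**Figure D4:**
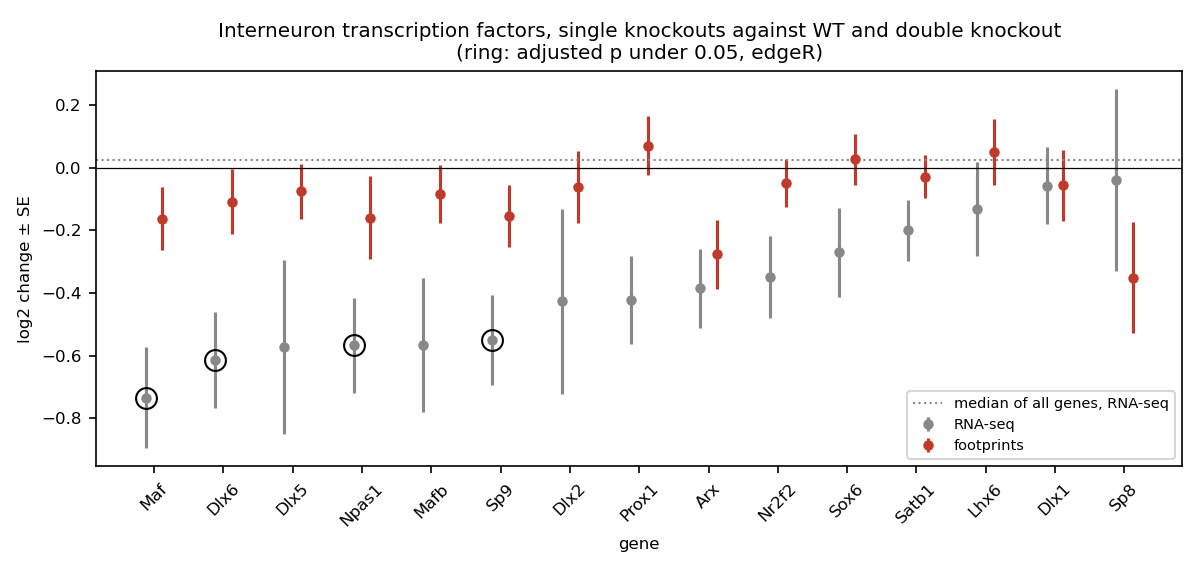
Log2 change ± SE (y axis) of 15 interneuron transcription factor genes, single KOs against WT and double KO, RNA-seq in grey and footprints in red; rings mark edgeR adjusted p under 0.05 and the dotted line is the median of all genes in RNA-seq. All 15 RNA points lie below 0, from Maf at -0.735 to Sp8 at -0.04.

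Other neuropeptide precursors and the receptors of the peptides and of reelin showed no call by edgeR in any of the 22 comparisons. These were 12 precursors, such as Penk, the precursor of enkephalins, and 16 receptors, such as Vldlr, a receptor of reelin, of which 14 were tested in RNA and all 16 in footprints. Over all comparisons 44 of 590 tests of these genes had an unadjusted p under 0.05, or 7.46%, below the 10.2% of the tests of all genes. In footprints with Fmr1 lost, Penk had a log2 change of -0.11 ± 0.0706 and Vldlr one of -0.22 ± 0.0752 (edgeR adjusted p = 0.422 and 0.148). Their medians there were 0.04 for the precursors and -0.01 for the receptors, where that of all genes was -0.01.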

How the data were processed

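Cytoplasmic RNA and ribosome footprints of cortex were measured in 16 libraries (4 genotypes, 2 libraries of each assay); genotype, assay and number come from the titles. Per the submitters' processing notes, cutadapt, Bowtie2, TopHat2, RSEM, DESeq2 and build mm10 were used; versions are not given in the sources used here. Per the file headers the authors deposited RSEM gene tables with unscaled estimated counts (expected counts), TPM and feature lengths. Of 15716 genes with 1 transcript, 99.6% had an RNA-seq length divisible by 3, with footprint features 57 nt shorter in 99.6%, so counts appear to cover coding sequence and footprints near its ends may be left out. The lysis buffer held cycloheximide and harringtonine, per the labels' protocols. The authors' deposited comparison tables hold log2 changes, p-values and adjusted p-values, from DESeq2 or Xtail per the series' design text.

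Expected counts were rounded. Genes passing filterByExpr (minimum count 10) entered tests by edgeR 4.0.16 (R 4.3.3, TMM, glmQLFit, glmQLFTest) over 13287 genes in RNA, 13774 in footprints and 13027 for translational efficiency (assay by genotype interaction, all 16 libraries). Each fit held the 8 libraries of an assay, with the replicate number as a block. This block is not in the labels; it follows earlier processing of this series and recalled study methods. SE is the log2 change over the square root of the F statistic. Alternatives were DESeq2 1.42.0, other scaling and filters, no block, only the 2 genotypes compared, the contrast of 4 genotype means, and leaving out each library. With 1 library left in a group, it is assumed to vary like the others. The TPM ratio used a pseudocount of 0.1, and log2 CPM for gene likeness a prior count of 2. The scripts were tested on simulated counts. The members and lists were chosen with earlier results of these data known. Named were all 10 members, from each other list called genes (at most 4 by p) or the 2 with most counts, and the 2 genes most like Pvalb, Sst and Vip. Chosen after values were seen were translational efficiency with Fmr1 lost, the 2 single KOs against each other and the percentile among genes under 600 nt. Promoter sequences come from RefSeq (GRCm38.p6), where all 10 genes matched. Of the 5 blood markers, Hba-a1 had no match in the tables.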

Additional observations from a re-analysis of the deposited data

Results flagged for a closer look

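Among 120 groups of 4 libraries (10 genes, 2 assays, 6 groupings), 10 had a library far from the other 3; chance flags about 1 group in 20. In RNA, Pvalb in double KO library 1 was 29.3 CPM, against 43.2 to 44.2 in the other libraries without Fmr1 and 43.7 to 46.2 in the others of WT and double KO. Pvalb in WT library 2 was 46.2 CPM, against 43.2 to 43.7 in the other libraries with Cpeb1. Sst RNA in double KO library 2 was 111 CPM, against 67.2 to 72.1 in the others without Cpeb1. Npy RNA in that same library was 35.2 CPM, against 29.6 to 30.0 in the others of WT and double KO. Cck RNA in Cpeb1 KO library 1 was 227 CPM, against 203 to 204 in the other single KO libraries. Tac1 RNA in WT library 1 was 21.1 CPM, against 30.5 to 31.4 in the others with Cpeb1, and in WT library 2 it was 31.4 CPM, against 21.1 to 22.4 in the others of WT and double KO. In footprints, Gad2 in double KO library 2 was 454 CPM, against 520 to 533 in the others without Fmr1, and Tac1 in Cpeb1 KO library 1 was 75.0 CPM, against 52.5 to 55.2 in the others without Cpeb1.

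The pooled RNA comparison sets the single KOs against WT and the double KO, 4 libraries against 4, so a gene called in it is a candidate for an effect of one knockout that differs with the state of the other. Called by edgeR with a higher log2 level in the single KOs were Vip (0.45), the convertase gene Pcsk1 (0.50), the granin gene Scg2 (0.43) and the astrocytic connexin gene Gja1 (0.38). Called lower were Maf (-0.735), Cux2 (-0.66), Dlx6 (-0.61), Ppp1r1b (-0.60), Npas1 (-0.57), Sp9 (-0.55), Kcnc1 (-0.48), Tbr1 (-0.46) and Pcsk1n (-0.44). Tested as a contrast of the 4 genotype means, which is the interaction itself, Pcsk1, Cux2, Ppp1r1b, Kcnc1 and Pcsk1n were called, and Vip (edgeR adjusted p = 0.098), Scg2 (0.0656), Gja1 (0.0682), Maf (0.0587), Dlx6 (0.0562), Npas1 (0.0781), Sp9 (0.0595) and Tbr1 (0.0772) were not. The pooled Scg2 call was also lost without WT library 1, Fmr1 KO library 1 or 2, Cpeb1 KO library 1 or double KO library 1.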

How the results depend on the processing

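The counts of members called were within 1.5 times the main value in 269 alternative values and further off in 34. Most comparisons had a main count of 0, and a 0 matching a 0 is among the 269, so that number does not measure how firm the 3 calls are. No log2 change that was followed through the alternatives changed its sign. Without the replicate block the calls fell from 1 to 0 for Npy (footprints, Fmr1 lost), Cort (footprints, double KO against WT) and Vip (RNA, pooled); it changed no other count of members. Deviations of same-numbered libraries correlated at -0.0446 to 0.293 in RNA and -0.0748 to 0.334 in footprints, so the numbers are not shown to pair the samples. The pooled RNA count fell to 0 with DESeq2's size factors, with 10 counts in every library and as a contrast of the 4 genotypes. With no filter the footprint counts rose to 2 for the double KO against WT and for Fmr1 loss. In fits of only the 2 genotypes they were 2 against the Fmr1 KO, 4 against the Cpeb1 KO and 2 for Fmr1 against Cpeb1 KO; DESeq2 gave 2 for the double KO against the Cpeb1 KO. Leaving out 1 library gave 0 to 1 in RNA (double against Cpeb1 KO, and pooled), and in footprints 0 to 2 for the double KO against WT, 0 to 2 against the Cpeb1 KO and 0 to 3 for Fmr1 loss. The cause was not tested. Counts over all genes moved more. The pooled RNA count of 971 ran from 274 (4-genotype contrast) to 1373 (no filter), and from 140 (without Fmr1 KO library 1) to 1433 (without double KO library 2) when 1 library was left out. Leaving out 1 library also moved the footprint counts: for the double KO against WT to 31 (without double KO library 2) and 1318 (without WT library 1), against the Cpeb1 KO to 5 (without Cpeb1 KO library 1) and 1987 (without WT library 1), against the Fmr1 KO to 7 (without double KO library 2) and 543 (without WT library 1), and for Fmr1 loss to 9 (without Cpeb1 KO library 1) and 1165 (without WT library 1). The shares of all genes called, given beside the members, move with these counts. Footprint counts without the block were 73 of 365 for the double KO against WT, 207 of 772 against the Cpeb1 KO, 4 of 46 against the Fmr1 KO and 24 of 127 for Fmr1 loss. With only the 2 genotypes, the double KO against the Cpeb1 KO had 1701, the double KO against the Fmr1 KO 762, and RNA of the Fmr1 KO against WT 401 in place of 1. Depth limits Cort most, with 13 to 32 RNA counts.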

Other observations

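Genes of neuropeptide processing and granules were described by the same tests, with 11 of 11 tested. In footprints Scg5, which encodes 7B2, the chaperone of the convertase PC2, was higher in the Cpeb1 KO than in WT (log2 change 0.97 ± 0.1525, edgeR adjusted p = 0.0361) and higher in the double KO than in WT (0.87 ± 0.1527, edgeR adjusted p = 0.0173). Scg5 footprints measured 380 and 237 CPM in WT, 606 and 594 in the Cpeb1 KO, 530 and 621 in the Fmr1 KO, and 545 and 576 in the double KO. All 6 knockout libraries exceeded both WT libraries, which are shared by these comparisons and lie far apart from each other. The share of all genes that did so was not computed, and Scg5 footprints were not called in the Fmr1 KO against WT. The Scg5 calls were lost without Cpeb1 KO library 1 or 2 (edgeR adjusted p = 0.291 and 0.53) and without double KO library 1 or 2 (0.0533 and 0.161), respectively, and the first also without the replicate block (0.103) and with DESeq2 (0.26). Scg5 RNA measured 266 and 382 CPM in WT and 318 and 154 in the double KO, and was not called (-0.51 ± 0.2651, edgeR adjusted p = 0.966). In the Cpeb1 KO, Scg5 RNA measured 492 and 382 CPM, above WT in library 1 and level with it in library 2. It was not called there either. Pcsk1n, which encodes proSAAS, an inhibitor of the convertase PC1/3, was higher in footprints of the double KO than in WT (0.47 ± 0.099, edgeR adjusted p = 0.0329) and than in the Cpeb1 KO (0.45 ± 0.0988, edgeR adjusted p = 0.0256). In RNA, Pcsk1, which encodes PC1/3, was higher in the single KOs than in WT and the double KO (0.50 ± 0.0875, edgeR adjusted p = 0.00872), while Pcsk1n was lower (-0.44 ± 0.0936, edgeR adjusted p = 0.0161). Pcsk1 RNA measured 108 to 124 CPM in the 4 single KO libraries and 68.7 to 88.3 in the other 4. Comparing double KO footprints with the Cpeb1 KO, the granule genes Scg2 (-0.36 ± 0.0693, edgeR adjusted p = 0.0191), Scg3 (-0.38 ± 0.084, edgeR adjusted p = 0.0263) and Pam (-0.36 ± 0.0819, edgeR adjusted p = 0.0278) were called lower and Pcsk1n higher, with 5.6% of all genes called. None of these 4 was called without Cpeb1 KO library 1 or library 2, or without double KO library 1 or 2. Without Cpeb1 KO library 1 the log2 changes were -0.311 for Scg2, -0.264 for Scg3, -0.268 for Pam and 0.353 for Pcsk1n. Scg3, Pam and Pcsk1n were also lost without the replicate block (edgeR adjusted p = 0.062, 0.062 and 0.141). The Pcsk1n footprint call against WT was lost without WT library 2 (edgeR adjusted p = 0.127), any Cpeb1 KO or double KO library (0.0526 to 0.195) or the replicate block (0.146), and its RNA call without Cpeb1 KO library 1 (0.0559). The Pcsk1 call was kept without any 1 library and without the block.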
